A study of Mus musculus with 9 samples.

Results

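Of the 48526 genes counted in BV-2 cells, an immortalised murine microglial line, 33 carry the names Zfp900 to Zfp999. The rule that takes them uses the gene symbol alone. RNA was sequenced in 9 libraries, numbered 4, 5 and 6 in each of 3 groups. Unprimed cells (UP) received LPS, the cell wall endotoxin of Gram-negative bacteria, 1 time at 100 ng/mL. Ultra-low primed cells (ULP) were first given 1 fg/mL and high primed cells (HP) 100 ng/mL, and both were then restimulated with 100 ng/mL as well. All groups thus carry the restimulation, and no unstimulated cells were analysed here. Groups follow the titles and descriptions, because the separate dose field of the labels gives the ULP and HP priming doses the other way round. Nothing in the labels ties the libraries to separate cultures, so that p-values reflect library-to-library spread alone, which could be technical.

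Most genes of this name group encode C2H2 zinc finger proteins, many of them with a KRAB (Krüppel-associated box) domain. The fingers bind DNA, and the KRAB domain recruits the corepressor TRIM28 (KAP1), which in turn brings in the histone H3 lysine 9 methyltransferase SETDB1, heterochromatin proteins of the HP1 family and histone deacetylases. KRAB zinc finger genes multiplied by tandem duplication, lie in clusters, and are best known for silencing transposable elements, in particular endogenous retroviruses. Transcripts of this family are typically scarce, and near-identical copies make their reads hard to assign. For most single members no target is given here, since none is known with certainty.

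The libraries held 24189203 to 27802244 assigned counts. Of 11 microglia and macrophage markers, 9 exceeded a mean of 1 RPKM (counts scaled to library total and gene length), summed to 1450 to 1890 RPKM, whereas Cx3cr1 and P2ry12 stayed at or under 0.0573 RPKM in every library. The summed markers of astrocytes, neurons, oligodendrocytes, fibroblasts and endothelium did not exceed 1.43 RPKM in any library. The libraries ULP 4 and HP 6 stood apart from their groups. On the first principal component of all genes tested, with the zinc finger genes described here left out, the UP libraries lay between −72.9 and −46.2, ULP 4 at −39.0, HP 6 at −20.2 and the other 4 primed libraries between 43.9 and 75.2. The nuclear RNA Malat1 separated the same libraries, with 2.17 to 3.14 RPKM in UP libraries, 4.81 RPKM for ULP 4, 5.16 RPKM for HP 6 and 30.2 to 96.7 RPKM for the other 4, and mitochondrial transcripts took 2.80 to 4.75% of counts. The part of this difference between libraries in the results below was not tested, and the main values are given below with and without ULP 4 and HP 6.

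Expression of the family was low. No count was found for 4 of the 33 genes (Zfp930, Zfp935, Zfp941 and Zfp951), while 11 had counts too low for testing and 18 passed the filter, which corresponds to about 10 counts (a CPM, the count scaled to the library total, of 0.383) in at least 3 libraries. The share with no count was 12.1%, against 51.4% of all genes, and the share tested was 54.5%, against 30.3% of all genes and 73.4% of 334 other genes named Zfp with a number. The 18 tested members had a median of the mean level of 0.332 RPKM, compared with 1.23 RPKM in the other tested Zfp genes and 6.10 RPKM in all tested genes. Which members passed depended on the primed libraries. Only 6 of the 18 (Zfp940, Zfp949, Zfp952, Zfp954, Zfp956 and Zfp961) reached the minimum in all UP libraries, and the other 12 passed through libraries in which they were higher, so that counts and medians over the 18 are a description and no evidence of a direction. Over all genes tested, 8.30% reached the minimum in fewer than 3 UP libraries.

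The highest level in the family was that of Zfp954, with 2.81, 3.26 and 3.19 RPKM in UP cells (libraries 4, 5 and 6 in that order, here and below), 3.13, 2.13 and 2.23 RPKM in ULP cells and 2.05, 2.24 and 2.81 RPKM in HP cells. The lowest values were those of ULP 5, ULP 6, HP 4 and HP 5, ULP 4 and HP 6 lay within the range of UP in RPKM, and in TMM-normalised counts the HP and UP groups did not overlap. Zfp956 followed with a mean of 1.54 ± 0.39 RPKM in UP cells, 1.82 ± 0.17 RPKM in ULP cells and 2.34 ± 0.09 RPKM in HP cells (SD, n = 3), and Zfp961 with 1.01 ± 0.09, 1.64 ± 0.36 and 2.05 ± 0.30 RPKM. These 3 genes were the only members with a mean above 1 RPKM over the 9 libraries. Their log2 fold changes over UP cells lay between −0.51 and 0.91. Zfp944 came next, with 0.276, 0.336 and 0.116 RPKM in UP cells, 0.316, 0.917 and 1.19 RPKM in ULP cells and 1.73, 2.19 and 0.478 RPKM in HP cells. Zfp948 measured 0.0441, 0.0448 and 0.0551 RPKM in UP cells, 0.0293, 0.690 and 0.934 RPKM in ULP cells and 1.36, 1.70 and 0.0899 RPKM in HP cells. In Zfp948 ULP 4 lay under the RPKM range of the UP libraries. It lay within that range in Zfp939, Zfp942, Zfp943, Zfp944, Zfp945, Zfp947, Zfp949, Zfp950, Zfp952, Zfp954 and Zfp956. The SD of Zfp948 in ULP cells (0.468 RPKM) was almost as large as its mean there (0.551 RPKM). Zfp946, Zfp952 and Zfp947 had means over all libraries of 0.423, 0.392 and 0.385 RPKM, and the SD of HP cells was 0.576 RPKM in Zfp946 and 0.605 RPKM in Zfp947 around means of 0.781 and 0.770 RPKM. The order of these 3 means therefore did not exceed the spread between libraries.

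**Figure D1:**
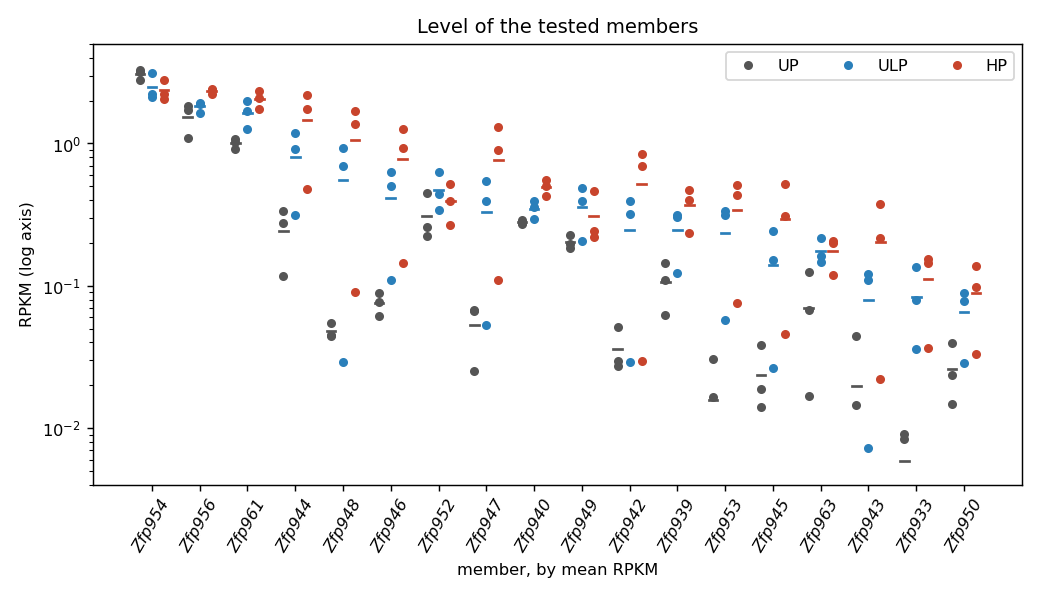
Level of the 18 tested members in RPKM on a log axis, ordered by their mean over all libraries, with 1 point per library and a bar at the mean of each group (UP grey, ULP blue, HP red). Libraries with no count (Zfp953 in UP 5, Zfp943 in UP 6 and Zfp933 in UP 4) are not drawn on this axis, and Zfp954 is the only member whose HP mean (2.37 RPKM) lies below its UP mean (3.08 RPKM).

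The 11 members below the filter summed to 10, 8 and 4 counts for UP, 13, 43 and 51 for ULP and 61, 96 and 16 for HP libraries. The 4 largest sums were thus again those of ULP 5, ULP 6, HP 4 and HP 5. Zfp938 contributed 1, 2 and 0 counts for UP, 2, 10 and 9 for ULP and 12, 21 and 3 for HP cells. Zfp932, which in mice binds and represses endogenous retroviruses together with its near copy Gm15446, had no count for UP, 1, 1 and 0 for ULP and 4, 10 and 0 for HP cells. Zfp957 did not exceed 2 counts in any library. No test was run on these genes with the filter in place. Without a filter edgeR called Zfp938 higher in HP over UP cells, as it did without ULP 4 or without HP 6, and without HP 6 it called Zfp958 as well. Summed over all 33 members, the deposited RPM (counts scaled to the library total) were 23.8, 22.2 and 22.0 for UP, 25.4, 39.6 and 46.9 for ULP and 55.6, 68.8 and 30.9 for HP libraries, and 19 to 22 members had a count in UP against 23 to 28 in primed libraries.

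To ask whether priming altered the family, ULP and HP cells were each compared with UP cells by edgeR's quasi-likelihood test with Benjamini-Hochberg adjustment over 14702 genes. Both comparisons share the UP libraries. No member passed an adjusted p of 0.05 in HP over UP cells, where 0.524% of all genes did, and none in ULP over UP cells, where 0% did. The smallest adjusted p of a member was 0.0606 in HP and 0.169 in ULP cells. With an unadjusted edgeR p under 0.05, 14 members were higher and 1 lower in HP cells (24.3% and 16.6% of all genes), and 9 were higher and 0 lower in ULP cells (17.3% and 9.79% of all genes). DESeq2 called 12 members higher in HP (17% of all genes) and 3 in ULP cells (7.04% of all genes), and limma on log2(RPKM + 0.1) called none. The normalised counts of HP and UP libraries did not overlap in 11 members that were higher and 1 that was lower, against 21.9% and 20.9% of all genes, and those of ULP and UP libraries in 5 and 0 members, against 14.8% and 13.5%. The log2 fold change was positive in 17 of the 18 tested members in both comparisons, with a median of 2.07 in HP and 1.42 in ULP cells, beside 0.01 and −0.01 over all genes and 0.53 and 0.43 over the other Zfp genes. Among the 6 members that reached the minimum in all UP libraries the median was 0.48 in HP and 0.37 in ULP cells, beside −0.04 in both comparisons over the 13482 genes for which the same held. The 12 others had medians of 3.36 and 2.38, and the 1220 genes that passed in the same way 1.11 and 0.85.

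**Figure D2:**
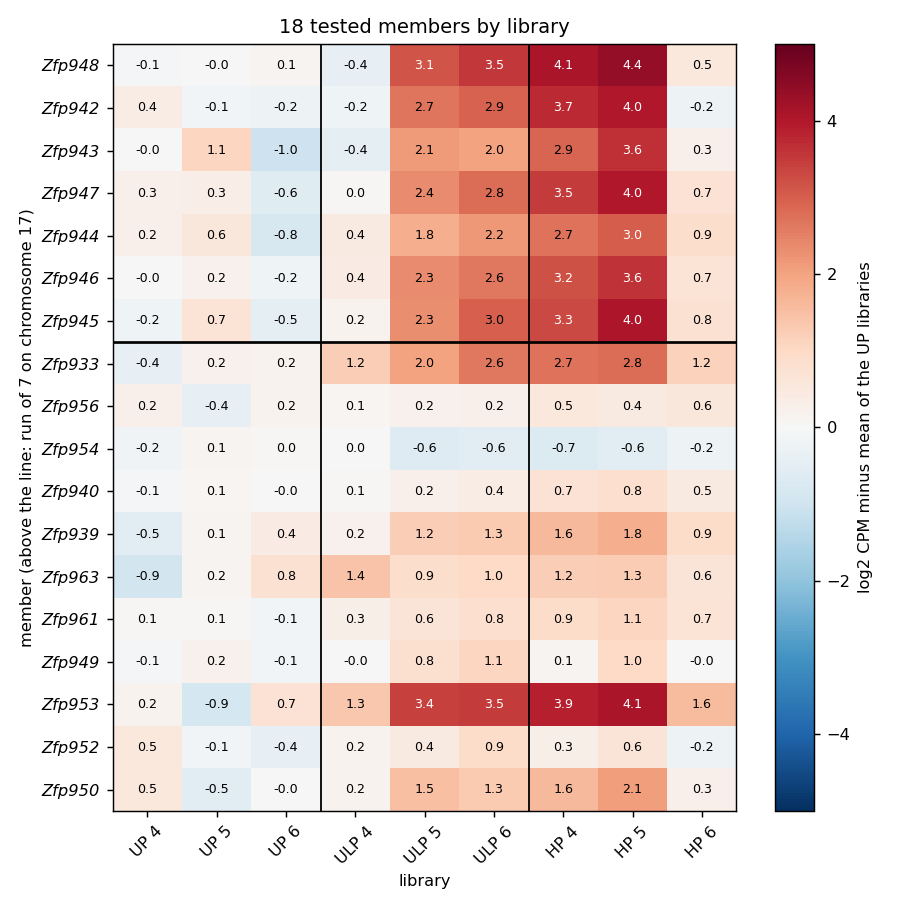
Log2 CPM minus the mean of the UP libraries for the 18 tested members (rows) in each library (columns), red above and blue below that mean. Values in ULP 4 and HP 6 are closer to those of UP than values of the other primed libraries in most rows, and the 7 rows above the line, neighbours on chromosome 17, have medians of 0.04 in ULP 4 and 0.69 in HP 6 where the other 4 primed libraries have 2.34 to 4.00.

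Among single members, Zfp953 had 2, 0 and 4 counts for UP, 7, 39 and 38 for ULP and 53, 66 and 9 for HP libraries. Every primed library was above every UP library, with ULP 4 and HP 6 closest to them. Its log2 fold change was 4.21 ± 1.03 in HP cells (SE, edgeR adjusted p = 0.0606) and 3.69 ± 1.05 in ULP cells (adjusted p = 0.169), the largest value in ULP cells in the family. Zfp933 had 0, 1 and 1 counts for UP, 4, 9 and 14 for ULP and 16, 18 and 4 for HP libraries, without overlap, and log2 fold changes of 3.90 ± 0.92 and 3.50 ± 0.96 (edgeR adjusted p = 0.0606 and 0.169). Over all libraries this gene had 67 counts. Zfp961, at a higher level, had 111, 104 and 100 counts for UP, 131, 177 and 189 for ULP and 214, 254 and 176 for HP libraries. The groups did not overlap with UP, and the log2 fold change was 0.91 ± 0.19 in HP and 0.62 ± 0.19 in ULP cells (edgeR adjusted p = 0.0606 and 0.169). Zfp961 had the smallest unadjusted edgeR p of the family in HP cells (0.000835) although its fold change was among the smaller ones. Zfp940, with 43, 45 and 47 counts for UP, 47, 58 and 58 for ULP and 80, 92 and 66 for HP libraries, differed by 0.70 ± 0.18 in HP over UP cells (edgeR adjusted p = 0.0606). Zfp946 had 7, 8 and 6 counts for UP, 10, 47 and 53 for ULP and 85, 122 and 13 for HP libraries, with log2 fold changes of 3.23 ± 0.84 and 2.32 ± 0.86 (edgeR adjusted p = 0.0606 and 0.169). ULP 4 and HP 6 exceeded the UP libraries by a few counts only. Zfp948, with the largest value in HP cells (4.28 ± 1.26, edgeR adjusted p = 0.0616), had 3, 3 and 4 counts for UP, 2, 48 and 59 for ULP and 93, 122 and 6 for HP libraries. In ULP over UP cells its difference was 3.36 ± 1.29 (edgeR adjusted p = 0.171), and ULP 4 was below all UP libraries. Zfp954 was the only tested member with negative values, −0.51 ± 0.21 in HP and −0.38 ± 0.21 in ULP cells (edgeR adjusted p = 0.109 and 0.247).

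**Figure D3:**
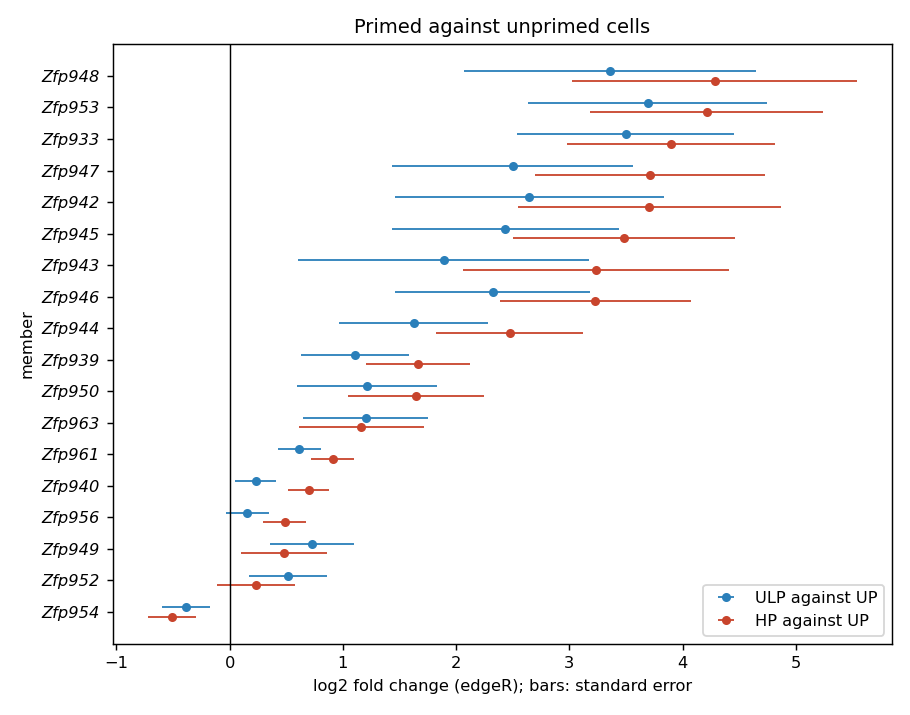
Log2 fold change of the 18 tested members in ULP (blue) and HP (red) over UP cells, with bars for the standard error of the edgeR fit. Values run from −0.51 (Zfp954) to 4.28 (Zfp948) in HP cells, and the widest bars are those of Zfp948, with a standard error of 1.29 in ULP and 1.26 in HP cells.

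The number of calls rested on ULP 4 and HP 6. Without ULP 4, edgeR called 5 members higher in ULP over UP cells (13.4% of all genes) and 13 higher in HP over UP cells (17.2% of all genes). The 5 were Zfp933, Zfp946, Zfp948, Zfp953 and Zfp961. Without HP 6, 15 were called higher in HP over UP cells (23.9% of all genes) and 0 in ULP over UP cells. Without both libraries, a setting added once their values had been seen and therefore a description, 15 were higher and 1, Zfp954, was lower in each comparison, of 20 tested, beside 23.6% of all genes that were higher in ULP cells and 28.1% in HP cells. Of all 14931 genes tested, 2185 were called lower in ULP and 3052 in HP over UP cells. In that setting the log2 fold change in HP over UP cells was 4.83 for Zfp948, 4.69 for Zfp953, 4.32 for Zfp933, 3.73 for Zfp946, 1.03 for Zfp961, 0.80 for Zfp940 and −0.64 for Zfp954. In ULP over UP cells it was 4.16 for Zfp953, 3.93 for Zfp948, 3.86 for Zfp933, 2.79 for Zfp946, 0.77 for Zfp961 and −0.59 for Zfp954. Leaving out any other library gave no call of a member in these comparisons.

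HP cells were further compared with ULP cells to ask whether the priming dose mattered. No member was called by edgeR, where 0.17% of all genes were, and the smallest adjusted p of a member was 1. With an unadjusted edgeR p under 0.05 there was 1 member, Zfp940 (3.94% of all genes), and DESeq2 called 0. Zfp940 was higher in HP by 0.47 ± 0.18 on the log2 scale (edgeR unadjusted p = 0.0262), and its HP libraries (66 to 92 counts) lay above its ULP libraries (47 to 58 counts). Zfp956 differed by 0.33 ± 0.19 and Zfp961 by 0.29 ± 0.18. The median over the tested members was 0.49, with 14 of 18 positive, and the median over all genes 0.02.

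Of the 33 genes 10 lie on chromosome 17, and 7 of these, Zfp948, Zfp942, Zfp943, Zfp947, Zfp944, Zfp946 and Zfp945 in this order, follow each other at chr17:21565816-22867309 (GRCm38.p6, RefSeq), with 55 to 390007 bases between neighbouring members. All 7 passed the filter, none of them on the UP libraries alone. This run was singled out after its values were seen and has no test. Its log2 fold changes ran from 2.47 to 4.28 in HP (median 3.48) and from 1.63 to 3.36 in ULP over UP cells (median 2.44), against medians of 0.91 and 0.73 in the 11 tested members elsewhere. The set elsewhere includes all 6 members that reached the minimum in all UP libraries, so that it is not matched to the run in this respect. Its other members had log2 fold changes in HP cells of 4.21 (Zfp953), 3.90 (Zfp933), 1.66 (Zfp939), 1.65 (Zfp950) and 1.16 (Zfp963). Per library, the median of the 7 genes relative to the UP mean was −0.01, 0.33 and −0.47 for UP, 0.04, 2.34 and 2.80 for ULP and 3.31, 4.00 and 0.69 for HP libraries. ULP 4 thus lay within the range of UP. Without ULP 4 and HP 6 the medians of the run were 4.01 and 2.95 and those of the members elsewhere 1.03 and 1.01. The interval holds 38 RefSeq genes, of which 10 were tested. Of the 3 tested genes there that are no members, the zinc finger gene Zfp758 had log2 fold changes of 4.98 in HP and 3.60 in ULP cells (edgeR adjusted p = 0.0622 and 0.193, or 5.54 and 4.14 without ULP 4 and HP 6), whereas Gm7809 had 0.32 and 0.47 and Gm5224 had −0.58 and 0.37. Zfp758 starts at base 22361430, directly beside the member Zfp944, which ends at 22361428. Of 11630 stretches of 51 bases in transcripts of Zfp944, 283 also occur in Zfp758. The values of Zfp758 and Zfp944 are thus not independent in this respect.

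**Figure D4:**
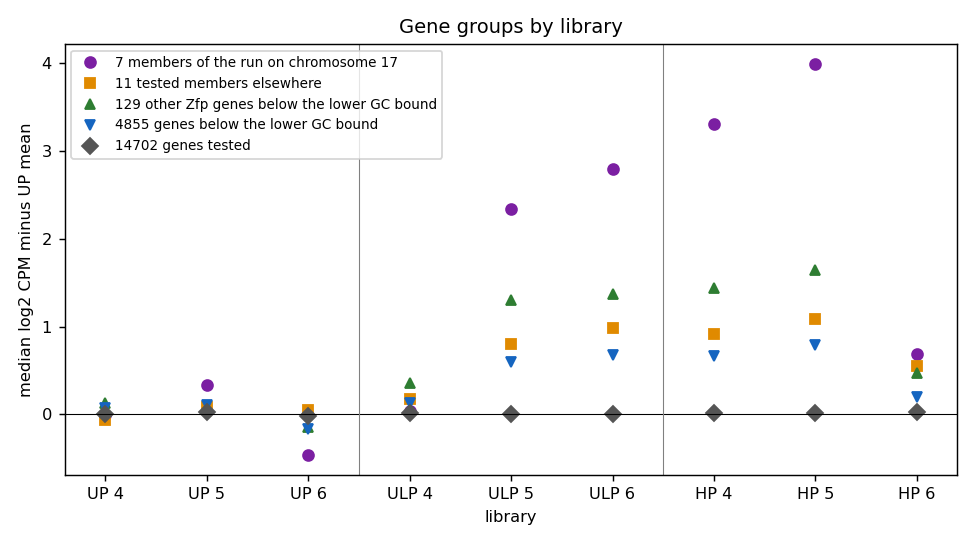
Median log2 CPM minus the UP mean in each library for the 7 members of the run on chromosome 17, the 11 tested members elsewhere, and, of genes with a GC content below 46.6%, other Zfp genes and all genes tested, beside all 14702 genes tested. The run reaches 4.00 in HP 5 and the median of all genes stays between −0.02 and 0.03 in every library.

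Promoter windows were read for 30 of the 33 genes from RefSeq (GRCm38.p6, 250 bases before to 50 after the start). Zfp930, Zfp934 and Zfp960 had no entry. Only the first listed window of each gene was used, and other starts were not read. That window lies wholly inside the gene for Zfp948 (plus strand, gene start chr17:21565816) and Zfp933 (minus strand, gene end chr4:147849126). The same holds for Zfp936 (plus strand, gene start chr7:43114166) and Zfp959 (plus strand, gene start chr17:55891084). Most of the window lies inside the gene for Zfp947, Zfp945 and Zfp951 (minus strand, gene ends chr17:22166172, chr17:22867309 and chr5:104860157). To show what neighbours of the run share, 4 of its windows are printed, followed by those of Zfp961 and Zfp954, 2 well counted members whose log2 fold changes had opposite signs. Capitals mark the E-box CACGTG, the CCAAT box (CCAAT or ATTGG) and the GC box (GGGCGG or CCGCCC).
Zfp942: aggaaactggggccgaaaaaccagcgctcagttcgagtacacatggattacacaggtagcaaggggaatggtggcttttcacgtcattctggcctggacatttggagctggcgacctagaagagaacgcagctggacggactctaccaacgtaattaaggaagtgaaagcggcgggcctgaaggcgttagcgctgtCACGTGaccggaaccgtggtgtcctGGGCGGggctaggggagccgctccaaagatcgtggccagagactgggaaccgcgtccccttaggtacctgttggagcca
Zfp944: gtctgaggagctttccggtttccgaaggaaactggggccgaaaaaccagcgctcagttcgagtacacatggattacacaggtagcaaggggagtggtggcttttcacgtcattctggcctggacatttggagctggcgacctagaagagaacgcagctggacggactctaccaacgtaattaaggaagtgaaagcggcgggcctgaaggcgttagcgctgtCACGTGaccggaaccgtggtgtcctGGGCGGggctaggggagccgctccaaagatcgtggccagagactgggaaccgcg
Zfp946: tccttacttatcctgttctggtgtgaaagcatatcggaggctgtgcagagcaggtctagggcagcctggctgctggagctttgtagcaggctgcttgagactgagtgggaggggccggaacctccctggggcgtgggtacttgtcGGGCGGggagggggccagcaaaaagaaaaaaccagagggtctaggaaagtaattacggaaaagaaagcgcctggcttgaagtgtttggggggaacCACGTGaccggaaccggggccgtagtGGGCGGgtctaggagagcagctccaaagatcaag
Zfp948: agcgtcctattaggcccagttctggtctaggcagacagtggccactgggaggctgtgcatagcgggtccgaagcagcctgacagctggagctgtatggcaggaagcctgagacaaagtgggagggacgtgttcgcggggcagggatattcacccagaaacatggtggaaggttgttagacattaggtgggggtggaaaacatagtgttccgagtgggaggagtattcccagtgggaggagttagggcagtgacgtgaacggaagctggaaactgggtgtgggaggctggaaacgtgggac
Zfp961: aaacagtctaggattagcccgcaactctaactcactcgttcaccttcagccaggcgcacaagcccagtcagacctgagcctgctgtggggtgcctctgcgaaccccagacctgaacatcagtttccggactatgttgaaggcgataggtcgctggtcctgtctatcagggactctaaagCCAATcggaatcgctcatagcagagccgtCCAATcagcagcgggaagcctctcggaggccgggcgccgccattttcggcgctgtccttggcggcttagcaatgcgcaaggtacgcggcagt
Zfp954: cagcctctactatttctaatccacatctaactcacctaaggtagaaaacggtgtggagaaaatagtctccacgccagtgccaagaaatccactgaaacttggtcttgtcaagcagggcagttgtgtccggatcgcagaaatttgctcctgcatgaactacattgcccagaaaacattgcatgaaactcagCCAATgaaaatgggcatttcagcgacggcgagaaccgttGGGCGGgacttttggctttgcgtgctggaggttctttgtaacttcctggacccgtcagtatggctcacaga
The windows lie at chr17:21962415-21962714 (Zfp942, minus strand), chr17:22361351-22361650 (Zfp944, minus strand), chr17:22423952-22424251 (Zfp946, plus strand), chr17:21566728-21567027 (Zfp948, plus strand), chr8:71950816-71951115 (Zfp961, plus strand) and chr7:7121427-7121726 (Zfp954, minus strand). In end-to-end alignments with gaps counted as differences, those of Zfp942 and Zfp944 were identical at 84.3% of positions (274 bases). The other pairs within the run were identical at 46.1 to 56.6%. The windows of Zfp942 and Zfp944 hold a near-identical stretch, shifted between them, and most of their difference is unmatched ends. Zfp942 and Zfp943 were aligned in opposite directions, so that their 48.9% does not show the overlap given next. No unrelated windows were aligned as a baseline. Zfp942 and Zfp943 are read away from each other with 55 bases between them, and their windows overlap by 194 bases. Motif matches in these windows come in part from the same bases and are not independent. Whether the overlap bears on the expression of both genes was not tested. The E-box stood in 5 of the 7 windows of the run, at −54 in Zfp942, −46 in Zfp943, −71 in Zfp947, −29 in Zfp944 and −10 in Zfp946 relative to the start used for the window. Zfp942 and Zfp943 share 1 site. By the annotated gene bounds, the sites of Zfp947 and Zfp946 lie inside the gene, and that of Zfp944 overlaps the gene end beside Zfp758. The site of Zfp944 lies in the stretch that its window has in common with that of Zfp942. Elsewhere 1 of 23 windows held an E-box (Zfp933, at −110). In all, 6 of 30 windows (20%) held CACGTG, against 7.2% of 27025 windows of all genes and 6.3% of other Zfp genes. The CCAAT box stood in 20 windows (66.7%, against 37.9% of all and 47.8% of other Zfp genes), including those of Zfp961 and Zfp954 but, within the run, only in Zfp947. The GC box was found in 10 windows (33.3%, all genes 35.9%, other Zfp genes 45.5%), the ETS letters CCGGAAG in 6 (20%, all genes 9.1%, other Zfp genes 21.9%), TGACG in 10 (33.3%, all genes 21%, other Zfp genes 27.6%) and TTCNNNGAA in 3 (10%, all genes 8.5%, other Zfp genes 16.6%). TATAAA and TGACTCA were found in 0 windows, against 14.2% and 5.2% of all genes and 6.3% and 3.3% of other Zfp genes. Both strands were searched, and the motifs and windows were chosen with the expression values known. A match is a run of letters and no measured site.

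Transcripts of the family were poor in G and C. The GC content of the longest transcript had a median of 40.4% in the tested members, 45.9% in other tested Zfp genes and 49.4% in all genes tested. Of the 18 tested members 17 lay below 46.6%, the bound under which 4855 of the genes tested fall, the exception being Zfp956 at 54.1%. Their median log2 fold change was 2.47 in HP and 1.63 in ULP over UP cells. Over all genes below the bound the medians were 0.57 and 0.47, and over 129 other Zfp genes below it 1.34 and 1.20. With the range of mean RPKM of the members as a further condition, 1770 genes had medians of 0.97 and 0.79. Genes between 46.6% and 52.2% had a median of −0.05 and those above 52.2% one of −0.25 in HP cells. Without ULP 4 and HP 6 the medians in HP and ULP cells were 2.91 and 2.03 for the 17 members, 1.59 and 1.47 for the other Zfp genes and 0.73 and 0.65 for all genes below 46.6%, and 1.20 and 1.05 for those also within the range of RPKM. An offset for GC content, fitted together with a term for the replicate number, moved the median of the members from 2.07 to 1.07 in HP and from 1.42 to 0.55 in ULP cells, and 14 of 18 were then positive in either comparison. These sets were not matched for the way their genes passed the filter. Of the tested members 66.7% missed the minimum in at least 1 UP library, against 20.8% of other Zfp genes and 8.3% of all genes. The part of GC content in the values of the members was otherwise not tested.

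Members were also set beside genes of their length. The 18 tested members had a median length of 4030 bases, compared with 4461 in other Zfp genes and 3243 in all genes tested, and none was shorter than 2098 bases, the bound of the shortest genes. Among genes of 2098 to 4596 bases, 12 members had medians of 1.41 in HP and 1.15 in ULP cells, where all genes of these lengths had −0.05 and −0.06. Of the 6 longer members the medians were 3.36 and 2.16, against 0.23 and 0.19 of all longer genes. Without ULP 4 and HP 6 these medians were 1.64 and 1.23 for the 12 members and 3.89 and 2.70 for the 6 longer ones, beside −0.07 in both comparisons and 0.27 and 0.25 over all genes of these lengths. Zfp948 has only 2612 bases, and its log2 fold change in HP over UP cells exceeded that of 99.2% of genes of its length class. Zfp950 with 10615 bases had a log2 fold change of 1.65 ± 0.60 in the same comparison (edgeR adjusted p = 0.0802). With an offset for gene length, 16 of 18 members were positive in either comparison. The length classes were not matched for the way genes passed the filter either. Zfp948 reached the minimum in 0 UP libraries, and 66.7% of the tested members missed it in at least 1, against 8.3% of all genes. The distances from genes of the same length are therefore a description.

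**Figure D5:**
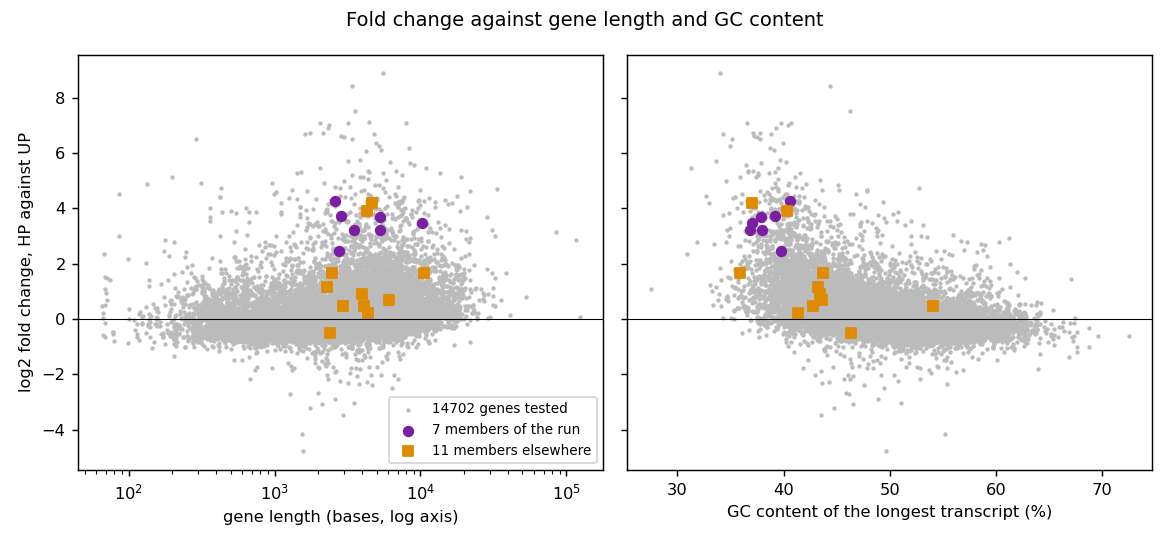
Log2 fold change in HP over UP cells against gene length (left, log axis) and against the GC content of the longest transcript (right) for all genes tested (grey), the 7 members of the run on chromosome 17 (purple circles) and the 11 tested members elsewhere (orange squares). The run lies at a low GC content, between 36.9% and 40.6%, and at lengths from 2612 to 10173 bases.

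Members with near copies are uncertain, because the handling of reads that fit several places is not stated in the sources used here. Of all 51-base windows in the annotated transcripts of Zfp960, 81.1% also occur in another gene, mostly Zfp97, and the shares were 62.7% in Zfp934, 54.1% in Zfp932, 33.1% in Zfp937, 29.4% in Zfp963, 26.0% in Zfp959, 20.8% in Zfp936, 20.6% in Zfp935, 19.4% in Zfp939 and 18.7% in Zfp943. Among the members named with fold changes it was 11.2% in Zfp953, 10.1% in Zfp940, 3.59% in Zfp933, 2.87% in Zfp961, 1.45% in Zfp946, 1.06% in Zfp948 and 0.80% in Zfp954. Within the run on chromosome 17 it ranged from 0.459% in Zfp945 to 18.7% in Zfp943. Values of Zfp946, Zfp948 and Zfp945 thus rest mostly on sequence of their own.

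Finally, a chosen list of 32 genes was examined, with corepressors of KRAB zinc finger proteins and other chromatin and nuclear factors. Not each is an established partner of these proteins, and Zfp57 is itself a KRAB zinc finger gene. The listed genes are called corepressor genes below for short. Of these 31 were tested, the exception being Zfp57 with no count. No gene was called by edgeR in any comparison, with 11 higher and 0 lower in ULP and 14 higher and 2 lower in HP over UP cells at an unadjusted p under 0.05, beside 17.3% and 9.79% of all genes in ULP and 24.3% and 16.6% in HP cells. DESeq2 called 4 higher in ULP cells (7.04% of all genes), and 12 higher and 1 lower in HP cells (17% and 7.79% of all genes). The median log2 fold change was 0.17 and 0.18. The scaffold Trim28 had means of 80.8, 64.8 and 70.4 RPKM in the UP, ULP and HP groups, with log2 fold changes of −0.40 ± 0.19 and −0.32 ± 0.19 (edgeR adjusted p = 0.203 and 0.230). The methyltransferase Setdb1 had means of 19.4, 23.1 and 24.2 RPKM and log2 fold changes of 0.17 ± 0.13 and 0.20 ± 0.13 (edgeR adjusted p = 0.378 and 0.252), which turned to −0.20 and −0.21 with an offset for gene length. Fam208a (also Tasor), a subunit of the HUSH silencing complex, had means of 0.361 ± 0.117, 4.98 ± 3.82 and 6.15 ± 4.44 RPKM (SD, n = 3), with 0.646 RPKM in ULP 4 and 1.19 RPKM in HP 6 against 6.41 to 9.78 RPKM in the other 4 primed libraries, and log2 fold changes of 3.67 ± 0.96 and 3.97 ± 0.97 (edgeR adjusted p = 0.169 and 0.0606), which were 4.22 and 4.47 without ULP 4 and HP 6. Morc3, a chromatin ATPase, differed by 1.73 ± 0.48 in ULP cells (edgeR adjusted p = 0.169), or by 2.13 without both libraries, and Sp100, a component of nuclear bodies, by −1.26 ± 0.30 in HP cells (edgeR adjusted p = 0.0606), or by −1.09 without both. Without ULP 4 and HP 6, 15 of the 31 genes were called in ULP and 18 in HP over UP cells, when 38.2% and 48.5% of all genes were called.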

How the data were processed

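Poly(A) RNA of BV-2 cells was analysed in 9 libraries, 3 each of UP, ULP and HP cells, grouped by titles and descriptions. Reads had been aligned with TopHat2 2.1.0 and assigned with featureCounts 1.5.0 after base calling with bcl2fastq 1.8.4, per the submitters' processing notes, which name GRCm38, while the supplement names another build. The counts were deposited as whole numbers for each gene, without normalization. The deposited RPM values were scaled by the authors to the total count of the library, and the deposited RPKM values also to gene length. Whether counting used strand, and how multiply mapped reads were handled is not stated in the sources used here. No value column lacked a sample.

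Low counts were removed with filterByExpr, which took the group into account and kept 14702 genes, libraries were scaled by TMM and counts were fitted in edgeR 4.0.16 (R 4.3.3, quasi-likelihood, all 9 libraries, a term for the group). Calls used a Benjamini-Hochberg adjusted p under 0.05 over all genes tested. Log2 CPM used a prior count of 2. Levels are the deposited RPKM, and gene length was recovered from RPM and RPKM. The fit was tested on simulated data. GC content (99.1% of genes tested) and shared windows came from GENCODE transcripts of another build, matched by gene, and positions and promoters from RefSeq (GRCm38.p6). Promoters were aligned with Biopython 1.88. Proteins were not used here, so that the members most alike in protein were not named.

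Alternatives were a replicate block, offsets for gene length, the block with offsets for length or GC content (loess, span 0.3), RLE size factors, DESeq2 1.42.0, no filter, only the 6 libraries compared, limma 3.58.1 on log2(RPKM + 0.1) or log2(RPKM + 1), and leaving out each library or replicate number. Leaving out ULP 4 and HP 6 together was added after seeing the data. Named members are the 8 with the highest mean RPKM, the 5 (HP over ULP cells 3) with the smallest p per comparison and those with the largest fold change either way. Named pathway genes are Trim28, Setdb1 and the 2 with the smallest p for ULP and for HP over UP cells. Genes outside this rule were named after their values were seen. Members, lists and motifs were chosen with earlier results of these data known.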

Additional observations from a re-analysis of the deposited data

How the results depend on the processing

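No member was called in any comparison with RLE size factors, an offset for gene length or limma. Correlations of the deviations of same-numbered libraries from their group means ran from −0.838 to 0.683. With ULP 4 and HP 6 apart from their groups, these deviations cannot decide whether the replicate numbers pair the libraries. With a replicate block 0 members were called in each comparison, with medians of 1.47 in ULP and 2.06 in HP over UP cells. The main fit had called no member or corepressor gene, and the block added none. Over all genes the block took the calls in HP over UP cells from 77 to 0. DESeq2 called 3 members in ULP and 12 in HP over UP cells, and of the corepressor genes 4 in ULP, 13 in HP over UP and 1 in HP over ULP cells. Of all 14702 genes it called 1035 higher and 13 lower in ULP over UP cells. In HP over UP cells it called 2505 and 1145, and in HP over ULP cells 11 and 96. Without a filter 11 members (of 29 tested) and 9 corepressor genes were called in HP over UP cells, with only the 6 libraries compared 5 (of 11) and 8, and with an offset for gene length 0 and 1. Over all genes, 2018 of 23593 were called without a filter and 1511 of 14256 with the 6 libraries compared. The length offset gave 14 higher and 94 lower of 14702. The median log2 fold change of the members in ULP over UP cells, and its distance from that of all genes, was 0.55 and 0.61 with the block and an offset for GC content, 0.65 and 0.64 in the 6 libraries compared, 0.17 and 0.12 with limma at a pseudocount of 1, and the distance was 0.65 at 0.1. In HP over UP cells these were 1.07 and 1.15, 0.94 and 0.92, 0.31 and 0.23, and at 0.1 1.06 and 0.92. Setdb1 turned to −0.20 in ULP and −0.21 in HP over UP cells with an offset for gene length, and to −0.19 and −0.21 with the block added. With 1 library or replicate number left out, calls of members ran from 0 to 5 in ULP over UP, 0 to 15 in HP over UP and 0 to 0 in HP over ULP cells, those of corepressor genes from 0 to 9, 0 to 16 and 0 to 0. The medians ran from 1.40 to 2.21, 1.76 to 3.32 and 0.20 to 1.30, and their distances from all genes from 1.37 to 2.22, 1.75 to 3.30 and 0.19 to 1.29. The highest counts of calls came without ULP 4 and without HP 6. Over all genes, 2008 were higher and 856 lower of 14931 in ULP over UP cells without ULP 4. In HP over UP cells without HP 6, 3578 were higher and 2143 lower of 14944. Without ULP 4 and HP 6 together (chosen after seeing the data) 16 members were called in ULP (median 2.24, distance 2.23) and 16 in HP over UP cells (3.32 and 3.30), and 15 and 18 corepressor genes. Of all genes 38.2% and 48.5% were then called. Over all genes, calls in ULP over UP cells went from 0 to 1048 with DESeq2 and in HP over UP cells from 77 to 3650 with DESeq2, 2018 without a filter and 1511 with the 6 libraries compared. The cause of these changes was not tested. Depth also limits the family: 11 members with counts fell below the filter and 12 of the 18 tested ones fell short of the minimum in at least 1 UP library.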
